A study of Mus musculus with 6 samples.

Results

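The mitochondrial ribosomal proteins were taken as all genes whose symbol begins with Mrpl or Mrps followed by a digit, which gave 78 of the 16640 genes in the table, 49 named Mrpl and 29 named Mrps. The mitochondrial ribosome translates the few messenger RNAs that mitochondrial DNA encodes, and all of their products are subunits of the respiratory chain and the ATP synthase. Its RNAs are made from mitochondrial DNA, whereas its proteins are encoded in the nucleus, made on cytosolic ribosomes and imported. In β-cells, mitochondrial ATP couples glucose metabolism to insulin secretion. By protein, 51 of the 78 members belong to the large subunit and 26 to the small subunit. The remaining member, *Mrps36*, is named as a ribosomal protein but has since been assigned to the 2-oxoglutarate dehydrogenase complex of the citric acid cycle. The symbols do not always give the subunit, since the products of *Mrps30* and *Mrps18a* sit in the large subunit.

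RNA was sequenced from MIN6 cells, a mouse pancreatic β-cell line derived from an insulinoma, in 3 control and 3 *Thada*-activated libraries. Both lines carried dCas9, a Cas9 that does not cut DNA. In the *Thada*-activated line, dCas9 fused to the activator VP64 acted with a guide RNA to the *Thada* promoter that recruits the activators P65 and HSF1 (the synergistic activation mediator, SAM). The control line carried dCas9 with a non-targeting guide. The activated line was obtained by lentiviral infection and drug selection, with no cloning step described, and the cells were grown in high-glucose medium. The study states in general terms that its cell experiments were repeated independently, while the labels do not say what a replicate of these libraries is, so p-values measure the spread between these samples. Control replicates 1, 2 and 3 held 17272834, 17166511 and 17689611 counts. *Thada*-activated replicates 1, 2 and 3 held 17727004, 17385036 and 17224631 counts. The member with the fewest counts in a library had from 115 to 126 counts, and the member with the most had from 1240 to 1602. All 78 members passed the filter on low counts, as did 12516 genes in all.

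*Thada*, the targeted gene (chr17:84190076-84466205, minus strand, GRCm38), was higher in every *Thada*-activated library. After scaling by the trimmed mean of M values (TMM), it stood at 28.1, 28.9 and 17.2 CPM (counts scaled to a common library size) in control replicates 1, 2 and 3. In *Thada*-activated replicates 1, 2 and 3 it stood at 57.3, 56.2 and 49.1 CPM. Control averaged 24.7 ± 6.53 CPM and *Thada*-activated cells 54.2 ± 4.43 CPM (SD, n = 3 each), and the conditions did not overlap (exact two-sided permutation p = 0.1, the smallest that 3 against 3 samples can give). The log2 fold change from edgeR was 1.13 (SE 0.22, adjusted p = 1.00) with the condition as the only term. It was 1.15 (SE 0.10, adjusted p = 0.00041) with the replicate number as a block. By the DESeq2 Wald test without the block the adjusted p was 0.0185.

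The cells are a β-cell line, and 9 of the 10 β-cell markers in the table passed the filter. The insulin gene *Ins2* took 6.37%, 5.65% and 10.2% of the counts of control replicates 1, 2 and 3, and 6.44%, 6.29% and 8.36% of those of *Thada*-activated replicates 1, 2 and 3. The glucose transporter gene *Slc2a2*, also a β-cell marker, did not pass and was at or under 0.512 CPM in every library. Markers of other cell types were low with a few exceptions. The acinar enzyme genes *Cel*, *Cela2a* and *Amy2a5* were at or under 0.115 CPM in every library, as was the endothelial gene *Cdh5*. The epithelial keratin gene *Krt7* and the islet hormone gene *Sst* reached 184 and 156 CPM.

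Compared per length, members covered a wide range of levels. The authors' FPKM values, scaled for transcript length and library size, averaged over the 6 libraries, ran from 3.83 to 131, a 34.2-fold range, with a median of 29.4 FPKM. All genes tested had a median of 11.6 FPKM. The cytosolic ribosomal protein genes had a median of 549 FPKM and the complex I subunit genes one of 132 FPKM. The large and small subunits had like medians, at 30.4 and 28.0 FPKM, with quartiles of 19.0 and 51.2 FPKM for the large and of 18.9 and 38.8 FPKM for the small subunit. Levels thus differed far more between genes of the same subunit than between the subunits.

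The highest mean level over the 6 libraries was that of *Mrps21*, a small subunit protein with a bacterial counterpart. It had 135, 113 and 120 FPKM in control and 150, 141 and 128 FPKM in *Thada*-activated replicates 1, 2 and 3. *Mrpl42*, a mitochondria-specific protein of the large subunit, followed with a mean of 107 ± 3.77 FPKM (SD, n = 6). Next came *Mrpl30* with 101 ± 24.5 FPKM, *Mrpl20* with 97.7 ± 24.7 FPKM and *Mrpl34* with 90.2 ± 16.7 FPKM (SD, n = 6), whose spreads overlap with each other and with that of *Mrpl42*. Replicate 3 lay apart in these 3 genes. *Mrpl30* was at 142 and 120 FPKM in the replicate 3 libraries of control and *Thada*-activated cells and between 82.1 and 89.3 FPKM in the other 4, whereas *Mrpl20* was at 63.1 and 69.6 FPKM in replicate 3 and between 108 and 120 FPKM in the other 4. *Mrpl34* was at 120 and 99.0 FPKM in replicate 3 and between 73.4 and 85.9 FPKM in the other 4. In control replicate 3, *Mrpl30* at 142 FPKM was above *Mrps21* at 120 FPKM. At the low end, *Mrpl19* had 3.83 ± 0.389 FPKM and *Mrpl35* had 4.44 ± 0.705 FPKM (SD, n = 6). *Mrps25*, *Mrps35* and *Mrpl17* followed at 7.23 ± 0.773, 7.99 ± 0.538 and 8.33 ± 0.46 FPKM (SD, n = 6), and the spreads of these last 3 overlap. These 5 low members have longest coding transcripts of 3721 to 7300 bases in GENCODE, against a median of 1302 bases over the members, and FPKM depends on the length assigned to a gene.

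**Figure D1:**
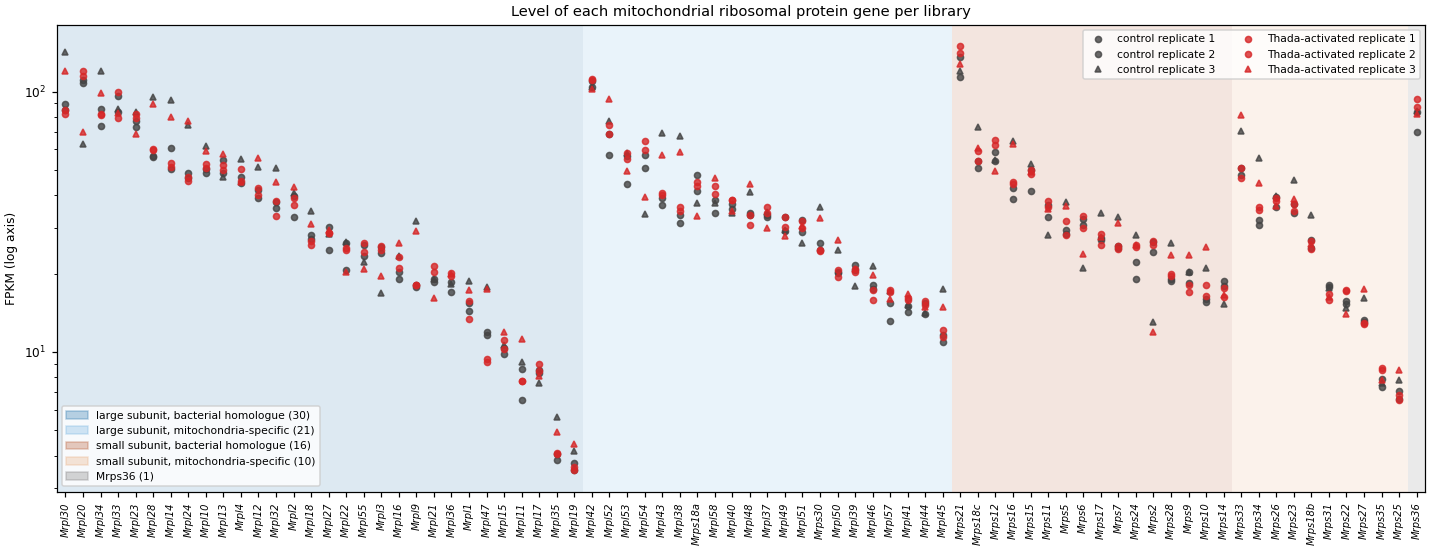
FPKM of each of the 78 members (log axis) in each library, grouped by subunit and by whether the protein has a bacterial homologue, with circles for replicates 1 and 2, triangles for replicate 3, grey for control and red for *Thada*-activated libraries. Levels run from *Mrpl19* at a mean of 3.83 FPKM to *Mrps21* at 131 FPKM, and for several members the triangles of both conditions lie apart from the circles.

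No member passed the threshold between *Thada*-activated and control cells, either without or with the replicate block. The comparison asks whether raising *Thada* was accompanied by other RNA levels for the proteins of the mitochondrial ribosome. A gene was called at an adjusted p under 0.05 and a fold change over 1.5. Without the block, edgeR called 0 of 78 members, and 0 of 12516 genes (0% of genes tested). At an unadjusted p under 0.05 it found 0 members and 101 genes (0.807% of genes tested). With the block it called 0 members and 19 genes (0.152% of genes tested), or 28 genes with no minimum fold change (0.224%). DESeq2 also called 0 members without and with the block. In bulk libraries, fewer cells with an RNA and less of that RNA per cell cannot be told apart.

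The estimates for the members were small. Their median log2 fold change was 0.01 without the block and 0.02 with it, beside a median of 0.00 over all genes tested in both fits. With the block, 48 members had a positive and 30 a negative estimate, from -0.21 for *Mrpl47* to 0.28 for *Mrpl52*. With the trend with GC content and length also removed, 33 were positive and the median was -0.0132, so neither the balance of signs nor the sign of the median held. In the blocked fit without removal of the trend, the 95% confidence intervals of all 78 members lay inside a 1.5-fold change in either direction. The widest bounds were those of *Mrpl52*, at 0.49 (1.40-fold higher), and of *Mrpl47*, at -0.48. Without the block, 58 of the 78 intervals lay inside 1.5-fold, and the median SE of a member was 0.15 as compared with 0.08 with the block. The members' summed CPM was 2414, 2272 and 2767 in control replicates 1, 2 and 3, and 2456, 2415 and 2696 in *Thada*-activated replicates 1, 2 and 3. As a share of all counts the members took 0.246% ± 0.0236 in control and 0.254% ± 0.0183 in *Thada*-activated libraries (SD, n = 3). The share was higher in the *Thada*-activated library of each same-numbered pair, at 0.246% against 0.239%, 0.242% against 0.227% and 0.275% against 0.273%. In summed CPM, which is scaled by TMM, replicate 3 went the other way, at 2696 in *Thada*-activated cells against 2767 in control. Most of the SD of the share within a condition lies between replicate 3 and the others.

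**Figure D2:**
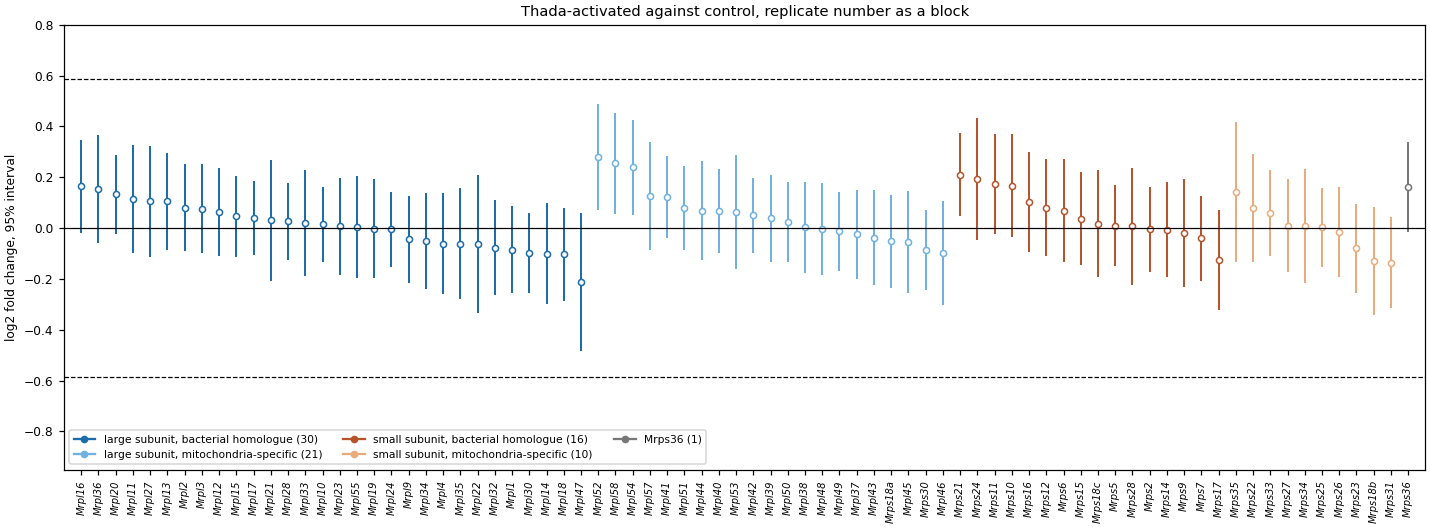
Log2 fold change of each member between *Thada*-activated and control cells (vertical axis) from edgeR with the replicate number as a block, with 95% confidence intervals, coloured by subunit and class. Dashed lines mark a fold change of 1.5, and the intervals of all 78 members lie between them, with open points because 0 members had an adjusted p under 0.05.

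At an unadjusted p under 0.05 in the blocked fit there were 4 members, all with a higher estimate in *Thada*-activated cells, and 1302 genes (10.4% of genes tested). *Mrpl52*, a mitochondria-specific protein of the large subunit, was at 17.7, 13.9 and 19.5 CPM in control, against 18.9, 17.6 and 25.8 CPM in *Thada*-activated replicates 1, 2 and 3. Its libraries overlapped between conditions, and its log2 fold change was 0.28 (SE 0.09, adjusted p = 0.326). *Mrpl58*, also known as ICT1, is a peptidyl-tRNA hydrolase that became part of the large subunit and can release peptides from stalled ribosomes. It was at 25.9, 22.5 and 25.6 CPM in control, against 26.7, 29.2 and 32.6 CPM in *Thada*-activated replicates 1, 2 and 3. Every *Thada*-activated library was above every control library, with a log2 fold change of 0.26 (SE 0.09, adjusted p = 0.34). *Mrps21* was at 45.1, 36.7 and 39.0 CPM in control, against 48.5, 46.4 and 44.5 CPM in *Thada*-activated replicates 1, 2 and 3, with a log2 fold change of 0.21 (SE 0.07, adjusted p = 0.339). *Mrpl54* was at 24.8, 21.2 and 14.6 CPM in control, against 27.8, 25.8 and 17.6 CPM in *Thada*-activated replicates, with a log2 fold change of 0.24 (SE 0.08, adjusted p = 0.347). For both genes the pairs of the same number differed in the same direction while the conditions overlapped. When each library was left out of the fit without the block, *Mrpl52* had 0.10 to 0.39 and *Mrpl54* 0.05 to 0.41. By the same check *Mrpl58* had 0.18 to 0.32 and *Mrps21* 0.14 to 0.30.

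The other members with the lowest p in these fits had smaller estimates. In the blocked fit the log2 fold changes were 0.16 for *Mrps36*, 0.16 for *Mrpl16*, 0.17 for *Mrps11* and 0.13 for *Mrpl20*, with adjusted p from 0.514 to 0.554. Those with a low p in the fit without the block were *Mrps31* at -0.14, *Mrpl36* at 0.15 and *Mrpl41* at 0.12 (adjusted p from 0.602 to 0.624 with the block). *Mrps31* was at 25.1, 24.3 and 24.5 CPM in control, against 23.0, 21.9 and 22.3 CPM in *Thada*-activated replicates, so its conditions did not overlap although the difference was small. Non-overlap in the upward direction held for 4 members, namely *Mrpl41*, *Mrps35*, *Mrpl58* and *Mrpl36* (2.69% of genes tested), and in the downward direction for 1, *Mrps31* (2.71% of genes tested). Of the 78 members, 14 were higher in *Thada*-activated cells in all 3 pairs (16.3% of genes tested) and 5 were lower in all 3 (16.7%). As shares of the members these are 17.9% and 6.41%.

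The genes that work with the mitochondrial ribosome also gave no call between conditions. Among the 5 mitoribosomal proteins with other names, *Gadd45gip1*, whose product is part of the large subunit, had the lowest p. It was at 47.9, 42.2 and 37.7 CPM in control, against 56.9, 57.4 and 46.1 CPM in *Thada*-activated replicates 1, 2 and 3, with a log2 fold change of 0.33 in the blocked fit (adjusted p = 0.105). *Aurkaip1* and *Chchd1*, both of the small subunit, had 0.13 (adjusted p = 0.608) and 0.09 (adjusted p = 0.773). Of 15 mitochondrial translation factors, those with the lowest p were *Gfm2* (a ribosome recycling factor) at 0.13, *Guf1* at -0.12 and *Lrpprc* (which stabilises mitochondrial messenger RNAs) at 0.29, with adjusted p from 0.654 to 0.738. Of 25 genes for mitoribosome assembly and rRNA modification, *Mterf3* was at -0.20, *Mtg1* at 0.20 and *Fastkd2* at -0.17 (adjusted p from 0.503 to 0.644). Of 17 mitochondrial tRNA synthetases, *Fars2* was at -0.13, *Vars2* at 0.10 and *Iars2* at 0.09 (adjusted p from 0.643 to 0.725). Of 11 genes for transcription and replication of mitochondrial DNA, *Tefm* was at -0.15, *Ssbp1* at -0.06 and *Tfb2m* at -0.05 (adjusted p from 0.768 to 0.878).

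Among the 9 regulators of mitochondrial biogenesis, the subunits of the GA-binding protein, an activator of many nuclear genes for mitochondrial proteins, had the lowest p. *Gabpb1* was at 28.6, 26.2 and 32.9 CPM in control, against 24.2, 25.9 and 24.7 CPM in *Thada*-activated replicates, with a log2 fold change of -0.23 (adjusted p = 0.413). *Gabpa* had -0.15 (adjusted p = 0.514) and the coactivator gene *Ppargc1b* had 0.17 (adjusted p = 0.699). The median log2 fold changes of these mitochondrial lists in the blocked fit were all small, from -0.05 for transcription and replication of mitochondrial DNA to 0.11 for the complex I subunits. The cytosolic ribosomal proteins had a median of 0.07.

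None of the β-cell and other cell markers tested passed in the edgeR fits of this comparison, either without or with the replicate block. *Krt19* was called with replicate 3 as a term and in replicates 1 and 2 alone with the block. *Krt7* had a log2 fold change of 0.32 (adjusted p = 0.0651) and *Krt19*, between 0.344 and 0.527 CPM in control and between 1.02 and 2.36 CPM in *Thada*-activated libraries, one of 1.78 (adjusted p = 0.0548). Among islet hormones, *Ppy* had 0.33 (adjusted p = 0.213), *Sst* -0.11 (adjusted p = 0.602) and *Gcg* 0.03 (adjusted p = 0.942). Among β-cell markers, *Nkx6-1* had 0.14 (adjusted p = 0.531), *Ins1* 0.13 (adjusted p = 0.532) and *Nkx2-2* 0.15 (adjusted p = 0.573). Of the blood, vessel and stroma markers, *Col1a2* had 0.67 (adjusted p = 0.431), *Cd68* 0.42 (adjusted p = 0.707) and *Col1a1* 0.07 (adjusted p = 0.941), all at or under 3.47 CPM in every library.

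The larger differences among members separated replicate 3 from replicates 1 and 2 in both conditions. That replicate 3 stands apart was known from earlier results of these data, and the contrast describes these libraries. With the condition as a term, edgeR gave 39 members a higher level in replicate 3 at an adjusted p under 0.05 and 6 members a lower one. Of all genes tested, 34.3% were higher and 34.4% lower by the same rule. Without control replicate 3 these counts of members were 32 and 10, and without *Thada*-activated replicate 3 they were 41 and 9. With the fold change over 1.5, 11 members were called higher and 3 lower, where 15.7% and 15.4% of genes tested were called. As shares of the members, 50% rose and 7.69% fell at the adjusted p alone, and 14.1% rose and 3.85% fell with the fold change. Both replicate 3 libraries were above all other 4 for 39 members (35.9% of genes tested) and below all other 4 for 10 members (35.9%). The members' median log2 fold change was 0.20, with quartiles of -0.06 and 0.40, beside a median of 0.00 and quartiles of -0.37 and 0.38 over all genes tested. The members' summed CPM in replicate 3 was 1.14 times that in replicates 1 and 2.

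These counts depended on whether the joint trend with GC content and transcript length was removed. The median of the members' longest coding transcripts was 1302 bases, against 3215 bases over 12287 genes tested with a GENCODE entry, while the GC content was alike, at 50% and 50.2%. Across those genes the log2 fold change in replicate 3 had a Spearman correlation with transcript length of -0.22 and with GC content of 0.01. Among the 78 members alone these correlations were 0.14 with length and -0.03 with GC content. Genes are not independent, and these values describe the libraries. After the trend with GC content and length was removed from each library, 7 members were called in place of 14, 3 higher and 4 lower, of which 6 were among the 14, and the median log2 fold change was 0.09. At the adjusted p alone, 29 members were then higher and 21 lower (34.2% and 34.9% of genes tested), in place of 39 and 6.

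**Figure D3:**
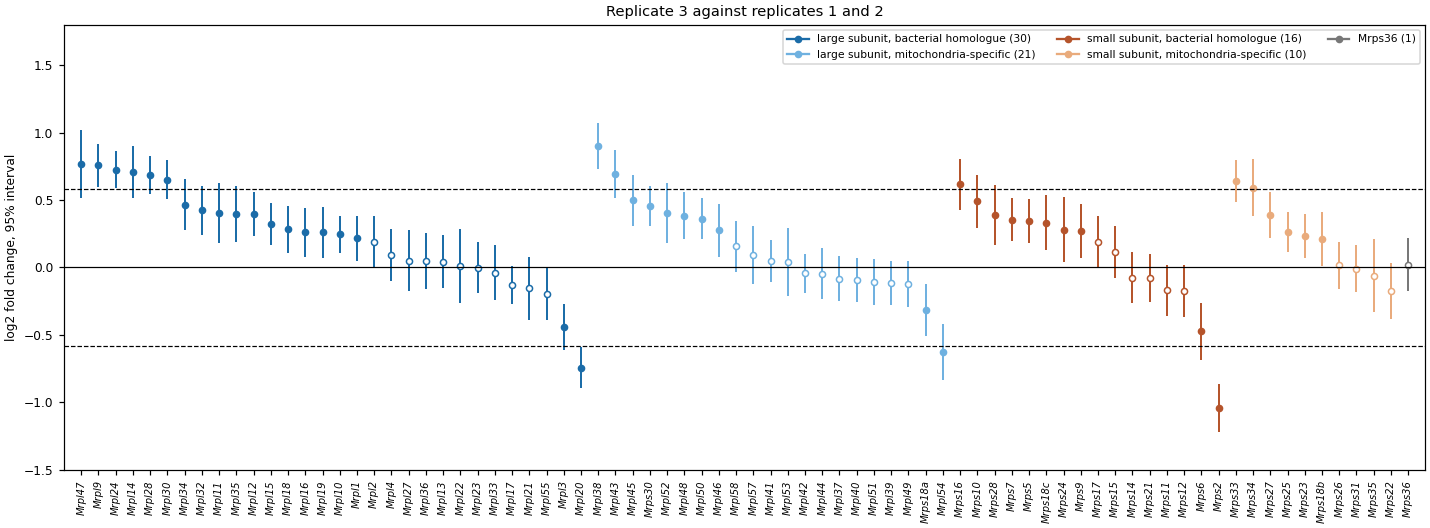
Log2 fold change of each member between replicate 3 and replicates 1 and 2 (vertical axis) from edgeR with the condition as a term, with 95% confidence intervals, coloured by subunit and class. Filled points have an adjusted p under 0.05 and dashed lines mark a fold change of 1.5, and 39 filled points lie above 0 and 6 below it.

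In the large subunit, 17 of the 30 proteins with a bacterial homologue rose and 2 fell, and 8 of the 21 mitochondria-specific ones rose and 2 fell (34.3% and 34.4% of genes tested). With the trend with GC content and length removed, 14 and 6 of the former and 6 and 8 of the latter were higher and lower, so the surplus of higher members was smaller in the first class and absent in the second. In the fit over all 6 libraries, the largest rise was that of *Mrpl38*, whose product lies in the central protuberance. It was at 42.6, 38.8 and 85.1 CPM in control, against 45.2, 43.5 and 73.8 CPM in *Thada*-activated replicates 1, 2 and 3, so replicate 3 was highest in both conditions. Its log2 fold change was 0.90 (SE 0.08, adjusted p = 1.26e-07), which is 1.87-fold. *Mrpl47*, the counterpart of a bacterial protein at the exit of the peptide tunnel, was the least abundant of the risen members. It was at 8.61, 8.15 and 12.8 CPM in control, against 6.53, 6.73 and 12.6 CPM in *Thada*-activated replicates, with a log2 fold change of 0.77 (SE 0.12, adjusted p = 3.57e-05). *Mrpl24*, whose bacterial counterpart also lies near the tunnel exit, went from 41.2 and 42.4 CPM to 68.4 CPM in control and from 40.4 and 42.3 CPM to 69.2 CPM in *Thada*-activated replicates. Its log2 fold change was 0.73 (SE 0.06, adjusted p = 1.15e-07), almost the same in both conditions, but 0.58 and under the minimum fold change with the trend removed. *Mrpl38* and *Mrpl47* kept their calls, at 0.72 and 0.74. Without control replicate 3, *Mrpl47* at 0.93 was likewise above *Mrpl38* at 0.74.

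*Mrpl9*, another protein with a bacterial homologue, was at 25.8, 25.8 and 45.9 CPM in control, against 25.9, 26.1 and 41.8 CPM in *Thada*-activated replicates 1, 2 and 3, with a log2 fold change of 0.76 (SE 0.07, adjusted p = 2.98e-07). *Mrpl14*, at the interface between the subunits, was at 26.9, 21.8 and 41.2 CPM in control, against 22.7, 23.8 and 36.7 CPM in *Thada*-activated replicates, with 0.71 (SE 0.09, adjusted p = 4.27e-06). *Mrpl28* was at 51.7, 50.3 and 87.0 CPM in control, against 54.4, 54.1 and 82.0 CPM in *Thada*-activated replicates, with 0.68 (SE 0.06, adjusted p = 2.48e-07). In each of these genes both replicate 3 libraries lay above the other 4. *Mrpl43*, a mitochondria-specific protein, was at 39.0, 40.9 and 73.5 CPM in control, against 42.4, 43.3 and 60.6 CPM in *Thada*-activated replicates, with 0.69 (SE 0.08, adjusted p = 2.63e-06). *Mrpl30* was at 48.8, 45.4 and 78.0 CPM in control, against 44.7, 46.7 and 68.1 CPM in *Thada*-activated replicates, with 0.65 (SE 0.07, adjusted p = 6.21e-07). Without control replicate 3, *Mrpl43* and *Mrpl30* had log2 fold changes of 0.50 and 0.58 and fell under the minimum fold change. With the trend removed, *Mrpl9* kept its call at 0.63, whereas *Mrpl14*, *Mrpl28*, *Mrpl43* and *Mrpl30* lost theirs, at 0.44, 0.47, 0.56 and 0.45.

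In the small subunit, 8 of the 16 proteins with a bacterial homologue rose and 2 fell, and 6 of the 10 mitochondria-specific ones rose and 0 fell (34.3% and 34.4% of genes tested). With the trend removed, these counts were 5 and 5, and 4 and 1. The median replicate 3 differences of these classes were 0.29 and 0.26 within control. Within *Thada*-activated libraries they were 0.07 and 0.07. *Mrps33* rose by 0.64 (adjusted p = 1.38e-06), *Mrps16* by 0.62 (adjusted p = 1.48e-05) and *Mrps34* by 0.59 (adjusted p = 8.17e-05) on the log2 scale. These were the small subunit members called with the minimum fold change in the upward direction, and none of the 3 calls held with the trend removed, where the values were 0.44, 0.56 and 0.34. Without control replicate 3, *Mrps16* at 0.56 and *Mrps34* at 0.34 were not called either, nor was *Mrps33* at 0.53 without *Thada*-activated replicate 3. The largest fall among all members was in this subunit. *Mrps2*, the counterpart of a bacterial protein that binds late in the assembly of the small subunit, was at 50.8, 46.0 and 25.2 CPM in control, against 51.3, 49.2 and 22.6 CPM in *Thada*-activated replicates 1, 2 and 3. Both replicate 3 libraries were below the other 4, with a log2 fold change of -1.05 (SE 0.08, adjusted p = 4.11e-08), which is 2.06-fold lower. *Mrps2* kept its call with the trend removed, at -1.13. Members of 1 complex thus differed in opposite directions between the same libraries.

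The other members that fell were from both subunits. *Mrpl20*, whose bacterial counterpart binds early in the assembly of the large subunit, was at 57.1, 53.4 and 32.2 CPM in control, against 58.2, 61.3 and 36.5 CPM in *Thada*-activated replicates 1, 2 and 3, with a log2 fold change of -0.74 (SE 0.07, adjusted p = 2.89e-07). *Mrpl54* had -0.63 (SE 0.09, adjusted p = 2.87e-05). Both kept their calls with the trend removed, at -0.97 and -0.91, and *Mrps6* was then called as well, at -0.68. *Mrps6*, *Mrpl3* (a protein near the peptidyl transferase centre) and *Mrps18a* fell by less than 1.5-fold, with log2 fold changes of -0.47, -0.44 and -0.32 (adjusted p = 0.000497, 0.000133 and 0.00469). The next lowest estimates were those of *Mrpl55* at -0.20 (adjusted p = 0.0601) and *Mrps12* at -0.18 (adjusted p = 0.081), and *Mrpl55* passed with the trend removed, at -0.39 (adjusted p = 0.00118).

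**Figure D4:**
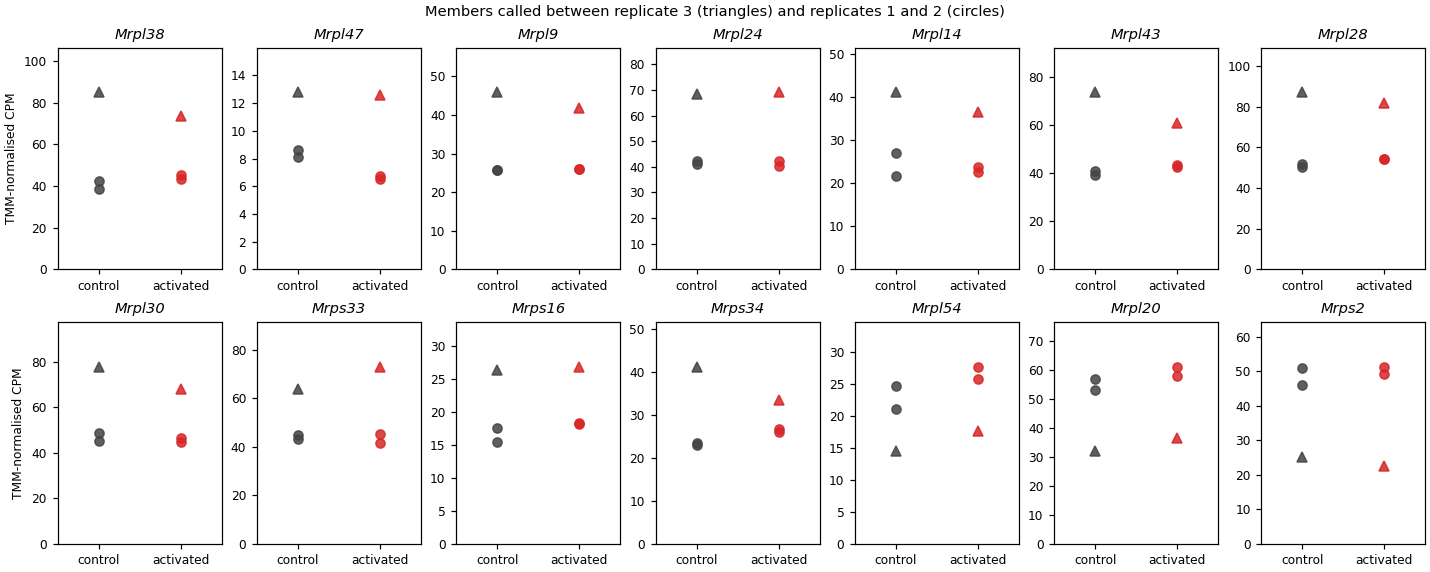
TMM-normalised CPM (vertical axis from 0, scaled per gene) of the 14 members called between replicate 3 and replicates 1 and 2, with circles for replicates 1 and 2, triangles for replicate 3, grey for control and red for *Thada*-activated libraries. In 11 members both triangles lie above all 4 circles, and in *Mrps2*, *Mrpl20* and *Mrpl54* both lie below.

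Members with a known particular role had log2 fold changes in replicate 3 from -0.32 to 0.50. These lay between the called lower and the called higher members, and none was called with the minimum fold change over all 6 libraries. *Mrpl12*, of the stalk that binds translation factors and reported to bind the mitochondrial RNA polymerase, was at 33.6, 30.3 and 40.8 CPM in control, against 31.6, 33.8 and 44.4 CPM in *Thada*-activated replicates 1, 2 and 3. It rose by 0.40 (adjusted p = 0.000201) on the log2 scale. *Mrpl45*, which faces the inner membrane near the tunnel exit, rose by 0.50 (adjusted p = 0.000109). *Mrps12*, of the decoding centre, and the hydrolase gene *Mrpl58* did not pass the test, with -0.18 (adjusted p = 0.081) and 0.16 (adjusted p = 0.116). Both depended on single libraries, with -0.32 to -0.0317 for *Mrps12* and 0.0841 to 0.22 for *Mrpl58* when each was left out, and both passed without control replicate 3 (adjusted p = 0.00302 and 0.0462). *Mrps36*, of the citric acid cycle complex, had 0.02 (adjusted p = 0.85). With the trend removed, *Mrps12* at -0.40 (adjusted p = 0.000331) and *Mrps36* at -0.23 (adjusted p = 0.0171) passed as lower. The related proteins of *Mrps18a*, *Mrps18b* and *Mrps18c* occupy different sites of the ribosome, the first in the large and the others in the small subunit. *Mrps18b* rose by 0.21 (adjusted p = 0.0484) and *Mrps18c* by 0.33 (adjusted p = 0.00511), while *Mrps18a* fell. Without control replicate 3 the log2 fold changes of *Mrps18b* and *Mrps18c* were 0.0352 (adjusted p = 0.791) and 0.18 (adjusted p = 0.162), so that neither passed without that library. Neither passed with the trend removed either (adjusted p = 0.699 and 0.465). *Mrps30*, of the large subunit, rose by 0.46 (adjusted p = 2.33e-05).

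Whether replicate 3 differed by other amounts in the 2 conditions cannot be told from these libraries, since each condition has 1 library of replicate 3. The spread in this fit comes from replicates 1 and 2 alone, so the p-values describe the libraries and not the conditions. The interaction of condition and replicate 3 had an adjusted p under 0.05 with a lower estimate in *Thada*-activated cells for *Mrps34*, *Mrpl43* and *Mrpl4* (3.26% of genes tested), and for 0 members with a higher one (3.7% of genes tested). Their share of the members was 3.85%. Over all members the median replicate 3 difference was 0.25 within control and 0.14 within *Thada*-activated libraries.

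Other parts of mitochondrial gene expression also held genes of both directions in replicate 3, as did all genes tested (34.3% rose and 34.4% fell). Of the 5 mitoribosomal proteins with other names, 2 rose and 2 fell: *Chchd1* was at 16.8, 15.5 and 29.9 CPM in control, against 16.2, 18.5 and 31.5 CPM in *Thada*-activated replicates (log2 fold change 0.87, adjusted p = 4.08e-07), whereas *Ptcd3* had -0.64 (adjusted p = 1.31e-05). Of 15 translation factors, 3 rose and 6 fell. *Oxa1l*, the insertase that places new proteins into the inner membrane, rose by 0.68 (adjusted p = 3.05e-06). *Gfm2* had -0.69 (adjusted p = 7.15e-06) and *Lrpprc* -1.10 (adjusted p = 0.019), the latter at 141, 139 and 45.7 CPM in control, against 140, 140 and 88.2 CPM in *Thada*-activated replicates. Without control replicate 3, *Ptcd3*, *Oxa1l* and *Gfm2* fell under the minimum fold change, at -0.49, 0.52 and -0.54, and *Lrpprc* had -0.67, against -1.61 without *Thada*-activated replicate 3.

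Of 25 genes for assembly and rRNA modification, 12 rose and 5 fell (48% and 20%), with a median of 0.22. With the trend removed, 10 were higher and 6 lower. With the minimum fold change, 6 were called higher and 2 lower, and the 5 of these with the lowest p were *Ngrn* at 1.01, *Mpv17l2* at 0.82, *Eral1* (a GTPase that binds the small subunit rRNA) at 0.70, *Rcc1l* at 0.98 and *Trub2* (a pseudouridine synthase) at -0.62 on the log2 scale, with adjusted p from 7.36e-08 to 1.78e-05. *Mpv17l2* and *Trub2* lost their calls with the trend removed, both at 0.58 in size. Of 17 tRNA synthetases, 5 rose and 7 fell (29.4% and 41.2%), shares not far from those of all genes tested. *Cars2* fell furthest, from 19.9 and 19.7 CPM to 5.74 CPM in control and from 19.3 and 22.9 CPM to 6.65 CPM in *Thada*-activated replicates (log2 fold change -1.72, adjusted p = 1.22e-08). *Fars2*, *Aars2* and *Wars2* had 1.00, 1.01 and 1.05, and *Lars2* had -0.80, with adjusted p from 9.12e-08 to 7.71e-06. Of 11 genes for transcription and replication of mitochondrial DNA, 3 rose and 1 fell, led by *Polg2*, a subunit of the mitochondrial DNA polymerase, and *Mgme1*. *Polg2* went from 1.70 and 2.33 CPM to 6.66 CPM in control and from 2.25 and 2.07 CPM to 5.23 CPM in *Thada*-activated replicates (adjusted p = 5.3e-06), and *Mgme1* rose by 0.65 on the log2 scale (adjusted p = 8.63e-06). Of 9 biogenesis regulators, 4 rose and 3 fell. *Ppargc1a*, a coactivator of nuclear genes for mitochondrial proteins, went from 8.90 and 9.66 CPM to 22.9 CPM in control and from 9.12 and 9.78 CPM to 18.3 CPM in *Thada*-activated replicates (log2 fold change 1.13, adjusted p = 2.83e-07). *Myc* had 1.20 (adjusted p = 1.95e-06).

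The cytosolic ribosomal proteins differed more in replicate 3 than the mitochondrial ones: 73 of 79 tested rose and 1 fell, with a median log2 fold change of 0.83. They took 2.25%, 2.05% and 3.87% of the counts of control replicates 1, 2 and 3 and 2.37%, 2.31% and 3.90% of those of *Thada*-activated replicates. The mitochondrial ribosomal proteins took 0.239%, 0.227% and 0.273%, and 0.246%, 0.242% and 0.275%. Of 37 complex I subunits, 15 rose and 5 fell, with a median of 0.11, and with the trend removed 9 were higher and 11 lower. For the cytosolic ribosomal proteins these counts were 71 and 3.

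Marker genes of the β-cell and of other cells moved with replicate 3, and their part in the members' differences was not tested. Of 9 β-cell markers tested, 2 rose and 7 fell. *Ins1* and *Ins2* had log2 fold changes of 0.82 (adjusted p = 2.23e-07) and 0.57 (adjusted p = 4.85e-05). *Pdx1* and *Nkx2-2*, which encode β-cell transcription factors, had -1.03 (adjusted p = 6.34e-09) and -0.91 (adjusted p = 3.66e-07). *Pcsk1*, *Mafa* and *Iapp* had -0.81, -0.61 and -0.58 (adjusted p from 4.71e-07 to 7.02e-05). With each library left out in turn, *Mafa* had -0.84 to -0.38 and *Iapp* -0.79 to -0.37, with the smallest size of each where 1 of the replicate 3 libraries was left out, and there *Mafa* lost its call. *Ins2* had 0.37 to 0.77 by the same check. The summed CPM of the 10 β-cell markers in the table was 118206, 106433 and 139435 in control and 113245, 111461 and 122527 in *Thada*-activated replicates 1, 2 and 3, most of it from *Ins2*. Of 3 islet hormones tested, 1 rose and 2 fell, with *Sst* at -1.14 (adjusted p = 6.04e-08) and *Ppy* at 0.70 (adjusted p = 3.75e-06), or at 0.57 and not called without *Thada*-activated replicate 3. The 5 in the table summed to 198, 166 and 111 CPM in control and 184, 173 and 115 CPM in *Thada*-activated replicates. Of 2 exocrine and duct markers tested, 2 fell: *Krt7* at -0.99 (adjusted p = 3.86e-09) and *Krt19* at -0.83 (adjusted p = 0.0454). *Krt19* was not called by DESeq2 (adjusted p = 0.234). The 5 of this list in the table summed to 151, 151 and 73.2 CPM in control and 184, 185 and 97.2 CPM in *Thada*-activated replicates, most of it from *Krt7*. Of 3 blood, vessel and stroma markers tested, *Col1a1* rose by 1.28 (adjusted p = 0.000208) and *Cd68* fell by 1.00 (adjusted p = 0.0334), and the 5 in the table summed to between 3.67 and 7.05 CPM. *Cd68* was not called by DESeq2 (adjusted p = 0.164).

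The positions and neighbours of the members' genes were also listed. The genes lie on 17 chromosomes, with the most, 11, on chromosome 11 and 8 on chromosome 17. In GENCODE M21 (GRCm38), 18 of 78 members (23.1%) have a protein-coding neighbour on the opposite strand that starts within 1000 bases upstream of their own start, as compared with 1277 of 12287 genes tested (10.4%). The distance between the starts was from 26 to 935 bases, with a median of 82 bases. *Mrps12* shares such a region with *Sars2*, the mitochondrial seryl-tRNA synthetase gene (172 bases between starts), and *Mrpl32* with the proteasome gene *Psma2* (75 bases). Of the 18 pairs, both genes rose in replicate 3 in 4 (22.2%), as compared with 12.6% of the 1175 genes tested that have such a neighbour tested. The member rose while the neighbour fell in 3 (16.7%, as compared with 9.62%). These 3 pairs were *Mrps18c* with *Helq*, *Mrps34* with *Eme2* and *Mrps18b* with *Ppp1r10*, and the members of the first and the last did not pass without control replicate 3. The differences between these shares were not tested.

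Exons of 17 members overlap exons of another protein-coding gene, on the opposite strand for 15 and on the same strand for 2. The strand setting of the counting is not given in the sources used here, so reads from such shared bases cannot be assigned with certainty. By single overlapping gene, the shared part was largest for *Mrpl53* (100% of its exonic bases, with a model on the same strand), *Mrps25* (58.2%, with *Nr2c2*), *Mrpl19* (39.2%, with *Gcfc2*) and *Mrpl24* (38.2%, with *Rrnad1*). *Mrps6* shares 36.1% with a model on the same strand and 18.8% with *Slc5a3*. Parts shared with different genes were not added up. Among called members, *Mrpl24* has the largest shared part, the 38.2% given above. *Mrpl43* shares 27.5% with the mitochondrial helicase gene *Twnk* and *Mrpl9* shares 6.06% with *Oaz3*. *Mrpl47* shares 13.4% with *Actl6a* and 4.70% with *Ndufb5*. Counts that were not whole numbers, which arise when a read is split between genes, were found for 10 members in at least 1 library.

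Promoters of the members were compared by short runs of letters that transcription factors recognise. RefSeq promoters (GRCm38.p6, from 250 bases before to 50 bases after the start) were matched for 69 of 78 members. Letters were searched on both strands: CCGGAAG, which ETS factors such as GA-binding protein recognise, ATGGCGG, as in sites of YY1, TATAAA of the TATA box, and for NRF1 (nuclear respiratory factor) GCGCA followed by any base and GCGC. The letters ATGGCGG begin with those of a start codon, and no attempt was made to tell the cases apart. CCGGAAG was present in 26 of 69 member promoters (37.7%), in 20.2% of the promoters of genes tested and in 9.93% of the 27025 genes with a promoter in the table. The NRF1 letters were present in 13 members (18.8%), as compared with 11.6% and 5.19%. ATGGCGG was also present in 13 members (18.8%), as compared with 9.48% and 4.69%. TATAAA was present in 5 members (7.25%), as compared with 8.29% and 15.7%.

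The shares are also given for members that rose in replicate 3 and for members that did not pass the test. CCGGAAG was in 11 of 34 risen members (32.4%) and 13 of 30 others (43.3%), and the NRF1 letters in 7 of 34 (20.6%) and 6 of 30 (20%). ATGGCGG was in 6 of 34 (17.6%) and 5 of 30 (16.7%), and TATAAA in 4 of 34 (11.8%) and 1 of 30 (3.33%). Of the 5 fallen members with a promoter in the table, 2 had CCGGAAG, 2 had ATGGCGG and 0 had the NRF1 letters. None of the differences between these shares was tested.

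Stretches of promoters are shown for 4 members with large rises, with the letters found in capitals, 5′ to 3′ on the strand of the gene. *Mrpl9* lies on the plus strand (chr3:94443288-94443377), as do *Mrpl14* (chr17:45686333-45686382) and *Mrpl30* (chr1:37890374-37890423), and *Mrpl43* lies on the minus strand (chr19:45006428-45006518). The first 3 hold the NRF1 letters, in *Mrpl30* on the opposite strand and in *Mrpl9* followed by ATGGCGG, and *Mrpl43* holds CCGGAAG at 2 places.
Mrpl9: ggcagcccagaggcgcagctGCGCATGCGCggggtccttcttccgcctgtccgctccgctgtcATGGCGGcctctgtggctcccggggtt
Mrpl14: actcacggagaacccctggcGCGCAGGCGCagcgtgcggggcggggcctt
Mrpl30: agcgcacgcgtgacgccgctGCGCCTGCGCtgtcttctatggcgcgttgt
Mrpl43: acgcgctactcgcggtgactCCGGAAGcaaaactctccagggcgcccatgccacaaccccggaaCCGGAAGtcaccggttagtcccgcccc

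Members that fell are shown beside them. *Mrps2* (chr2:28468075-28468115), *Mrpl3* (chr9:105053229-105053275) and *Mrps18a* (chr17:46110958-46111044) all lie on the plus strand. *Mrps2* holds ATGGCGG on the opposite strand, *Mrpl3* holds CCGGAAG and *Mrps18a* holds both.
Mrps2: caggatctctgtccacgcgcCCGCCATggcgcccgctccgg
Mrpl3: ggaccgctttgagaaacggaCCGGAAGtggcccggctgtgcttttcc
Mrps18a: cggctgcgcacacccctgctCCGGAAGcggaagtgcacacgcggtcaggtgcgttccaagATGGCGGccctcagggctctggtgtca

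Of members with a particular role, *Mrpl12* (chr11:120484536-120484585), *Mrpl45* (chr11:97315576-97315725) and *Mrpl58* (chr11:115403715-115403776) are shown, all on the plus strand of chromosome 11. *Mrpl12* holds the NRF1 letters on the opposite strand, *Mrpl45* holds them at 2 places, and *Mrpl58* holds CCGGAAG at 2 places. The promoters of *Mrpl47*, *Mrpl24*, *Mrpl28* and *Mrpl20* held none of these letters in this window.
Mrpl12: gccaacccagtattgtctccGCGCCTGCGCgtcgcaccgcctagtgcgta
Mrpl45: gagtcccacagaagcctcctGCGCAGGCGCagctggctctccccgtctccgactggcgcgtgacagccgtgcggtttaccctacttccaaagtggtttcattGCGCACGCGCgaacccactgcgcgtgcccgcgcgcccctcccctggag
Mrpl58: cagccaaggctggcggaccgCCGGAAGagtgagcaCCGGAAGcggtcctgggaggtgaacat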

How the data were processed

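RNA of 6 MIN6 libraries, 3 per condition, was sequenced on the BGISEQ-500 platform. The submitters' processing notes name Bowtie2, RSEM, DESeq2 and the build GRCm38 with no versions. The authors deposited expected counts (estimated read counts per gene, not normalized) for each library, and FPKM for each library in a table of all genes. Expected counts were rounded to whole numbers. The 12 other per-library columns of that table were not used, nor was the authors' own comparison of the conditions (fold changes, p and q). In addition, 1 broken line of that table was left out.

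Libraries held from 17166511 to 17727004 counts, so 1 count was from 0.0564 to 0.0583 CPM before scaling. Counts were fitted over all genes with edgeR 4.0.16 in R 4.3.3 (filterByExpr by group, TMM, robust quasi-likelihood fit and test), and p-values were adjusted by Benjamini-Hochberg over the 12516 genes tested. DESeq2 1.42.0 (Wald test) and limma 3.58.1 (with trend, on log2 FPKM) gave alternatives, and Python 3.11.15 with scipy 1.17.1 gave the summaries. The scripts were tested on simulated data. The conditions were compared without and with the replicate number as a block, and replicate 3 with replicates 1 and 2 with a term for the condition. A fit over the 4 cells of condition and replicate 3 gave the differences within each condition and their interaction.

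The deposited labels do not say what a replicate number marks. The deviations of same-numbered libraries from their condition's mean correlated at 0.667, 0.671 and 0.869 for replicates 1, 2 and 3, so the block was also fitted. Control replicate 1 with *Thada*-activated replicate 2, and control replicate 2 with *Thada*-activated replicate 1, correlated at 0.705 and 0.726, so that replicates 1 and 2 cannot be told apart by this check. Replicate 3 against replicates 1 and 2 lay between -0.784 and -0.766.

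The members and the gene lists were chosen with earlier results of these data known. Named are *Thada*, members with the lowest p between conditions in each fit, with the largest and lowest log2 fold changes in replicate 3 and with the highest and lowest FPKM, 9 members with particular roles, and in each other list the genes called, up to 5 by p, and the 3 with the lowest p in the blocked fit. Genes named beyond these were chosen after their values were seen. Some cell type markers are not reported here. Alternatives changed the scaling, the test, the filter, the threshold, the library sizes, the unit, the terms and the libraries. Those that join the block with another choice, and the removal of the trend with GC content and length, were chosen after seeing the data. GENCODE M21 gave lengths, GC content, exons and neighbours, and RefSeq gave promoters.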

Additional observations from a re-analysis of the deposited data

Results flagged for a closer look

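In these libraries 3 members had an adjusted p under 0.05 for the interaction of condition and replicate 3, all 3 with a lower estimate in *Thada*-activated cells. They are 3.85% of the members, where 3.26% of genes tested were lower and 3.7% higher by the same rule, so the count is near that of all genes. *Mrps34*, a mitochondria-specific protein of the small subunit, had a log2 fold change in replicate 3 of 0.83 within control and 0.34 within *Thada*-activated libraries, a difference of -0.48 (adjusted p = 0.0175). *Mrpl43* had 0.88 and 0.50, a difference of -0.38 (adjusted p = 0.0256). *Mrpl4*, a large subunit protein with a bacterial homologue, had 0.28 and -0.10, a difference of -0.38 (adjusted p = 0.0287). Each condition has 1 library of replicate 3, which is assumed to vary like replicates 1 and 2, so the p-values describe these libraries and a difference between the conditions cannot be told from them.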

How the results depend on the processing

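Between conditions, 0 members were called in any setting run, and the block changed no member's call. In replicates 1 and 2 alone with the block, 1 member, *Mrps36*, had an adjusted p under 0.05 (0.0367) with a fold change under 1.5, where 1.82% of genes were higher and 1.11% lower by that rule. *Thada* was called in place of not called with the replicate block (1.15), replicate 3 as a term (1.15), the DESeq2 Wald test (1.13) and replicates 1 and 2 alone with the block (0.99). The same held for the block with the DESeq2 Wald test (1.16), with DESeq2 size factors (1.15) and with the GC and length trend removed (1.16), which were added after seeing the data. For *Thada*, leaving out each library gave 0.93 to 1.26. The members' median between conditions ranged from -0.0264 to 0.10 when each library was left out.

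In replicate 3, 45 members passed with no minimum fold change and 7 with the GC and length trend removed, in place of 14. With that trend removed and no minimum fold change, added after seeing the data, 50 passed, 29 higher and 21 lower. Leaving out each library, with the minimum fold change, gave 10 to 15. The members' median was 0.14 within *Thada*-activated libraries, 0.0867 with the GC and length trend removed, and from 0.14 to 0.25 with each library left out. *Mrps36* changed sign within *Thada*-activated libraries (-0.11) and with the trend removed (-0.23, adjusted p = 0.0171), and ranged from -0.11 to 0.15 with each library left out.

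Between conditions, each library was left out in the fit without the block, which leaves the conditions with unequal shares of replicate 3, whereas the report gives the blocked estimates. Estimates without a call also changed sign in this check: *Mrpl20* (-0.0880 to 0.33), *Chchd1* (-0.26 to 0.45), *Gfm2* (-0.12 to 0.27), *Lrpprc* (-0.19 to 0.41), *Mtg1* (-0.0901 to 0.43), *Fars2* (-0.57 to 0.27), *Ssbp1* (-0.13 to 0.0109), *Tfb2m* (-0.16 to 0.10), *Ins1* (-0.18 to 0.48), *Nkx2-2* (-0.0221 to 0.46), *Sst* (-0.37 to 0.21), *Gcg* (-0.15 to 0.18) and *Col1a1* (-0.49 to 0.63). In replicates 1 and 2 alone with the block, *Tfb2m* had 0.0192 and *Gcg* -0.11. Of the other values, 729 between conditions and 871 in replicate 3 kept their direction and their side of the threshold. In replicate 3, 44 values of named genes lost a call and 14 gained one with the direction kept, and between conditions *Krt19* gained one in 2 settings, replicate 3 as a term and replicates 1 and 2 alone with the block. With the trend removed, 8 of the 14 called members lost their calls (*Mrpl14*, *Mrpl24*, *Mrpl28*, *Mrpl30*, *Mrpl43*, *Mrps16*, *Mrps33* and *Mrps34*) and 1, *Mrps6*, gained one. The cause of these changes was not tested. Where 1 library of a group is left, it is assumed to vary like the others. With 3 libraries a condition, small differences may be missed.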
